A study of Drosophila melanogaster with 120 samples.

Results

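Ageing of the abdomen was followed in females of the 3 Drosophila melanogaster populations that had been selected for a long reproductive lifespan. The comparison rested on 12 of the series' 120 arrays, the selection abdomens of day 50 and of day 5, and the 12 arrays of days 15 and 30 showed when the change took place. Arrays were taken by their labels for tissue, regime and day. Each population and day had 2 biological replicates, which were averaged, and the 3 populations, called 1S, 2S and 3S here, were the replicates.

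The groups, in the order used below, were selection abdomens of days 5, 15, 30 and 50, control abdomens of the same days (populations 1C, 2C and 3C) and selection heads of the same days. The 6 selection abdomens of day 1 are used once, to show earlier levels. All flies were unmated females kept at 25 °C, and RNA was taken after 35 generations of selection. Per the labels, selection populations had been mated at 28 and later at 40 days of age and control populations at 14 days, and all 6 descended from wild-caught flies. No transgene, drug or mutant allele is named for any group. Whole abdomens were profiled, so a lower value may mean fewer cells of a type or less RNA per cell, which cannot be told apart in these samples.

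The abdomen of a female fly holds the ovaries, the fat body, most of the gut and the body-wall muscle. The fat body stores lipid and, with the follicle cells of the ovary, makes yolk proteins, and egg production in Drosophila is known to decline with age. Breeding from old parents is a classic way to obtain populations that live and reproduce longer. What the abdominal transcripts of such flies do between early adulthood and old age, and when, is the question this comparison addresses.

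Values are log2 intensities, 1 per transcript, and a difference of 1 is a 2-fold difference. The arrays name transcripts by FlyBase number, and the files do not pair these numbers with genes, so most transcripts below carry a number and no gene name. Synonyms in a RefSeq gene table tied 16 of the 16637 transcripts to a single gene. No yolk, eggshell, germline, eye, testis, gut or blood-cell marker was among them, so the tissue could not be checked by marker. It was checked by profile instead: each of the 24 selection abdomens correlated across transcripts at 0.9532 or more with the median profile of the other abdomens and at 0.7615 or less with that of heads. Array medians lay between 9.92 and 10.45, and replicate pairs correlated between 0.949 and 0.994. The lowest pair was that of 1S on day 30, where the array of replicate 1 had a median of 9.92 against 10.38 in its partner. The labels do not say whether replicates came from separate cultures. The p-values measure how far these populations, as sampled, differed in their changes between days, pooled over both regimes.

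The size of the change between day 5 and day 50 differed between the selection populations. The root mean square change over all transcripts was 0.516 in 1S, 0.249 in 2S and 0.375 in 3S on the log2 scale. The spread between replicates alone would give 0.209 in 1S, 0.194 in 2S and 0.262 in 3S, so the change was 2.47 times that size in 1S, 1.29 times in 2S and 1.43 times in 3S. The means of 0.38 ± 0.134 in selection populations and 0.341 ± 0.0393 in control populations (SD, n = 3 each) were compared by exact permutation, two-sided (p = 0.8), which can reach 0.1 at the lowest with 3 against 3. Across transcripts the changes of 1S and 3S correlated at 0.446, those of 2S and 3S at 0.285 and those of 1S and 2S at 0.114, as descriptions over 16637 transcripts that share arrays and normalization.

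**Figure D1:**
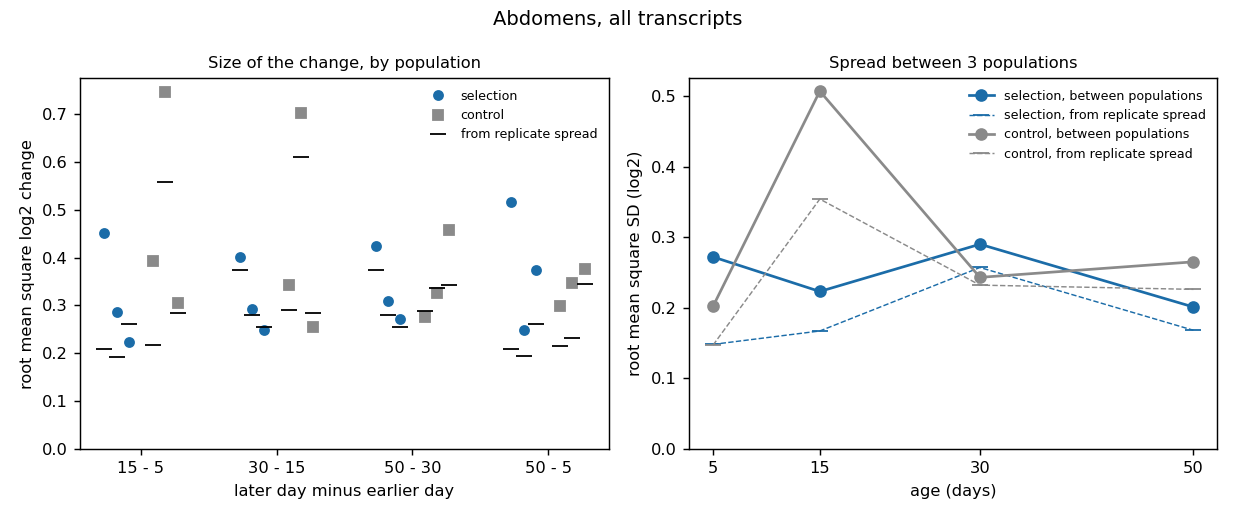
Left, root mean square log2 change over all transcripts between the days named on the x axis; each point is a population, blue circles for selection and grey squares for control, and the black dash gives the size expected from replicate spread alone. Right, root mean square SD (log2) between the 3 populations of a regime against age in days, with dashed lines for the part expected from replicates; selection stood at 0.201 on day 50 and 0.272 on day 5.

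The selection populations stood closer together on day 50 than on day 5, a difference that was not tested. The root mean square SD between them was 0.272 on day 5, 0.223 on day 15, 0.29 on day 30 and 0.201 on day 50. Replicate spread alone would give 0.148, 0.167, 0.257 and 0.168 on the same days. The SD was smaller on day 50 than on day 5 in 62.5% of transcripts. Control populations had 0.265 on day 50 and 0.202 on day 5, where replicate spread alone would give 0.226 and 0.147. On day 5 the most distant pairs included 1S, at root mean square differences of 0.464 from 2S and 0.374 from 3S, against 0.299 between 2S and 3S. The arrays of 1S had medians of 10.38 and 10.45 on day 50 and of 10.11 and 10.09 on day 5. The median change over transcripts in 1S between these days was only -0.0012 as deposited. After each array was centred on its median it was -0.311, so centring brings a shift into 1S. The spread after centring was 0.203 on day 50 and 0.296 on day 5.

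The transcripts that passed in selection abdomens were few, and with both regimes in the fit most of them fell. Of 16637 transcripts, 13 passed an adjusted p of 0.05 in limma, 0.0781% of those tested, with 2 higher on day 50 (0.012%) and 11 lower (0.0661%). The fit used the population averages of both regimes on days 5 to 50, with population as a block, and Benjamini-Hochberg adjustment. At least 2-fold changes were reached by 1 of the 2 rises and 9 of the 11 falls. Over all transcripts, whether or not they passed, 83 rose and 37 fell at least 2-fold. All 13 moved the same way in the 3 populations, which 33.3% of all transcripts did. In 12 of the 13 the 6 arrays of day 50 lay apart from the 6 of day 5, against 1.85% of all transcripts, and FBtr0075194 was the exception. The same arrays chose the 13, so this agreement and separation follow largely from the choice and add no separate evidence. At an unadjusted p under 0.05 there were 1637 transcripts, 9.84% of those tested, with 821 higher and 816 lower on day 50. The falls lay between 9.10 and 13.50 on day 5, around the median of all transcripts at 10.24.

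The number that passed, and its split into rises and falls, rests on which arrays set the spread and on each population. Fitted on selection abdomens alone, 50 transcripts passed, 0.301% of those tested, with 24 higher (0.144%) and 26 lower (0.156%) on day 50, and 12 of the 13 were among them. Fitted on the selection abdomens of days 5 and 50 alone, more passed and most were higher on day 50, as counted in the last paragraph. That the falls outnumbered the rises thus held only for some of the fits. Leaving out the day-15 arrays of control population 2, whose replicates correlated at only 0.859, gave 53, with 28 higher and 25 lower and all 13 included. Without 1S 3 passed, without 2S 5 and without 3S 0. Quantile normalization left 7 and median centring 10, all of them lower on day 50. Median centring moved the median change of all transcripts to -0.13, against -0.01 as deposited.

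Among the falls, 3 transcripts with neighbouring FlyBase numbers had some of the largest sizes. FBtr0077061 had a lowest, median and highest value of 8.53, 8.93 and 9.58 in the 6 arrays of day 50, against 10.71, 10.92 and 11.73 on day 5. The 2 days did not overlap, and the fall was 2.09 (log2 change -2.09 ± 0.34 SE, limma adjusted p = 0.0265). FBtr0077058 followed at 8.51, 9.00 and 9.53 on day 50 and 10.61, 10.88 and 11.78 on day 5, a change of -2.07 ± 0.35 (adjusted p = 0.0317). These 2 transcripts differed by at most 0.28 in any of the 24 arrays and correlated at 0.992 over them, so they carry nearly the same measurement, and whether their probes are shared was not tested. FBtr0077060 stood higher, with 9.70, 9.93 and 10.62 on day 50 and 11.39, 12.15 and 12.60 on day 5, and changed by -1.996 ± 0.27 (adjusted p = 0.00863). Its correlation was 0.856 with FBtr0077058 and 0.846 with FBtr0077061. No other transcript numbered FBtr0077054 to FBtr0077066 passed, and the closest, FBtr0077056, changed by -0.43.

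The first of these, FBtr0077061, changed by -2.20 in 1S, -2.08 in 2S and -1.99 in 3S, the narrowest spread of the 4 largest falls (SD 0.104, n = 3 populations). FBtr0077060 and FBtr0086819 had the smallest adjusted p, and with the transcripts shared with heads below they are named after their values were seen. FBtr0086819 had 8.06, 8.77 and 9.23 as lowest, median and highest value on day 50 and 10.47, 10.81 and 11.11 on day 5, with no overlap. It changed by -2.02 ± 0.28 (adjusted p = 0.00863), by -1.28 in 1S, -2.42 in 2S and -2.35 in 3S. With 2 of the 3 populations left, the falls of FBtr0077061 and FBtr0077058 no longer passed whichever population was dropped. FBtr0077060 then passed only without 2S and FBtr0086819 only without 1S. The sizes of these 4 stayed between -1.73 and -2.39 throughout.

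The transcript with the larger rise was FBtr0087279. It had 10.04, 10.83 and 11.28 as lowest, median and highest value on day 50, against 8.59, 8.80 and 8.95 on day 5. The days lay more than a log2 unit apart, and the change was 2.00 ± 0.34 (adjusted p = 0.0317), with 2.08 in 1S, 1.60 in 2S and 2.32 in 3S. On day 5 the populations were close together (8.77 ± 0.0339, SD, n = 3), and on day 50 they stood at 10.77 ± 0.371. Its call was lost after quantile normalization (1.93, adjusted p = 0.0689), after median centring (1.88, adjusted p = 0.0542) and without any 1 of the 3 populations. The other rise, FBtr0087022, was dim and small, with 7.94, 8.12 and 8.50 on day 50 and 7.55, 7.67 and 7.87 on day 5. Its change of 0.49 ± 0.09 (adjusted p = 0.0377) did not pass after either rescaling, without any 1 population, or in selection abdomens alone (adjusted p = 0.0623).

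**Figure D2:**
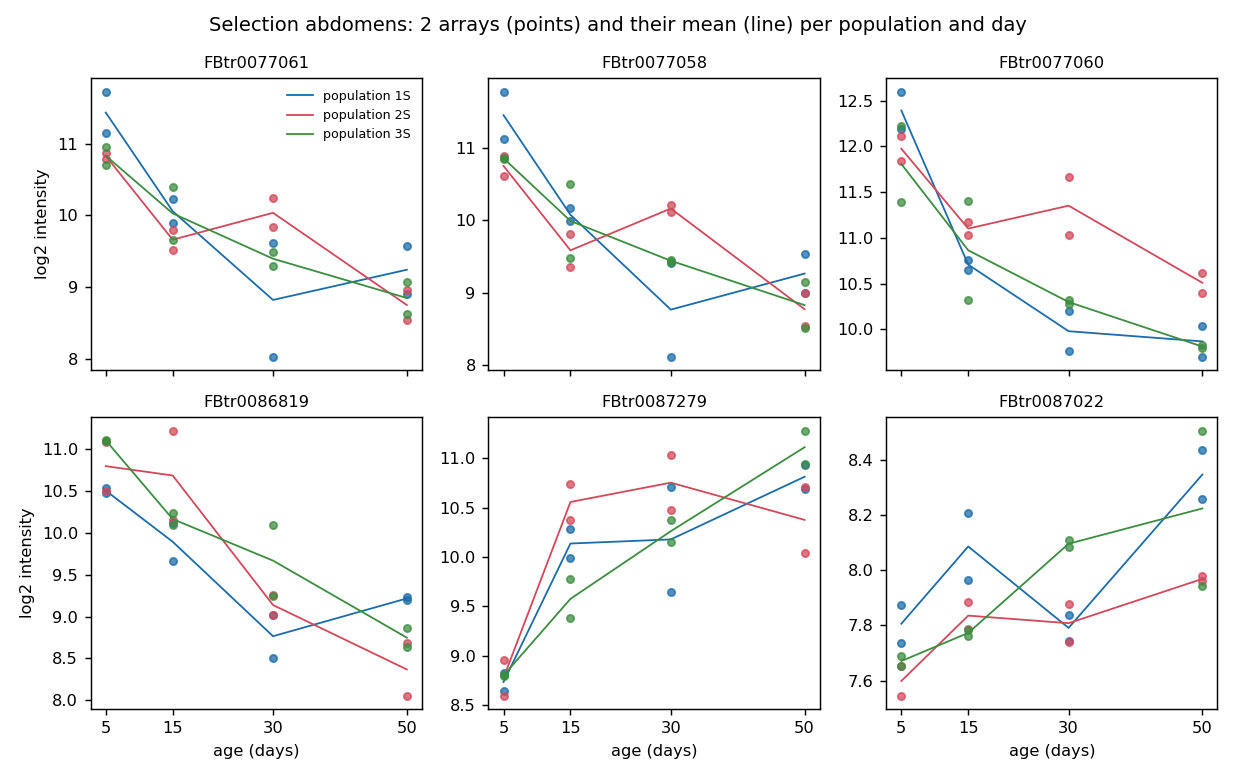
Log2 intensity against age in days for 4 falling and 2 rising transcripts in selection abdomens; points are single arrays and lines join the mean of 2 arrays per population. In each panel the 6 points of day 50 lie apart from the 6 of day 5. On day 30 FBtr0077061 spans 8.03 to 10.24, where 8.03 is replicate 1 of 1S, the array with a median of 9.92.

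For most of the falls, much of the change was already present on day 15. Mean levels of FBtr0077061 were 11.03, 9.91, 9.42 and 8.94 on days 5, 15, 30 and 50. FBtr0087279 stood at 8.77, 10.09, 10.40 and 10.77 on the same days, so 66.1% of its rise was reached by day 15. The median fall among the 11 had reached 58.5% of its day-50 size by day 15 and 88.9% by day 30. By day 15, 9 of the 11 had covered at least 50% of the fall. The slowest were FBtr0086819 and FBtr0075194, at 27.4% and 27.5%, whose main step came between days 15 and 30 (-1.05 and -0.81). These shares use the same arrays that chose the transcripts. The day-30 levels include the array of 1S with the low median of 9.92. Some falls ended at dim levels: FBtr0080350 had 8.27, 7.98 and 7.96 on days 15, 30 and 50. FBtr0080382 and FBtr0075194 ended at 8.25 and 8.38. Whether a floor of the arrays limited their later change, and so raised their early shares, was not tested.

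Timing was therefore also read from arrays that had no part in the choice. In the arrays of biological replicate 1 alone, 14 transcripts passed, 6 higher and 8 lower on day 50. Only 7 of these 14 were among the transcripts called from the averages of both replicates. The timing below is therefore that of a partly different set. FBtr0087279, FBtr0077061, FBtr0077058 and FBtr0078847 did not pass in replicate 1 (limma adjusted p = 0.0881, 0.0564, 0.0718 and 0.104). In the arrays of replicate 2 the median change of the 8 was -0.57 on day 15, -1.17 on day 30 and -1.12 on day 50. Compared with day 5, 7 of the 8 were lower on day 15, and all 8 on days 30 and 50. The 6 had medians of 0.23, 0.35 and 0.67 on the same days, and all 6 were higher on every later day. The reverse choice gave no transcript, since limma on replicate 2 alone called 0, with 415 at an unadjusted p under 0.05. Over all transcripts the day-50 changes of the 2 replicate sets correlated at 0.661 (Pearson), as a description.

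No single step of the time course was called. Of 16637 transcripts, limma passed 0 between days 5 and 15, 0 between days 15 and 30 and 0 between days 30 and 50, each 0% of those tested. At an unadjusted p under 0.05 there were 411, 374 and 631 transcripts for these steps. The lowest adjusted p values were 0.66, 0.998 and 0.916. For days 5 to 15 the smallest unadjusted p values among rises belonged to FBtr0075821 (1.27), FBtr0078025 (1.30) and FBtr0075823 (1.51). Among falls they belonged to FBtr0087920 (-0.93), FBtr0078847 (-0.79) and FBtr0080350 (-0.95), which are all among the 11 falls of day 50. Between days 15 and 30 they were FBtr0085832 (0.61), FBtr0078208 (0.22) and FBtr0085815 (0.76) upward, and FBtr0086819 (-1.05), FBtr0110770 (-0.24) and FBtr0079868 (-0.61) downward. From day 30 to day 50 they were FBtr0079868 (0.73), FBtr0082307 (0.81) and FBtr0070879 (1.05) upward, and FBtr0087996 (-0.29), FBtr0086763 (-1.01) and FBtr0113791 (-0.37) downward. FBtr0079868 thus had means of 14.32, 14.26, 13.65 and 14.38 on days 5, 15, 30 and 50. In 1S the root mean square change between days 5 and 15 was 2.16 times the size expected from replicate spread, in 2S 1.48 times and in 3S 0.86 times. Between days 15 and 30 it was 1.08 times in 1S, 1.05 times in 2S and 0.98 times in 3S, and between days 30 and 50 it was 1.14, 1.11 and 1.07 times in the same order of populations.

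The falls did not all continue a decline from day 1. On day 1, 7 of the 11 were higher than on day 5, 5 of them at least 2-fold, and 4 were lower. The day-5 arrays also chose these falls, and no share over all transcripts is given beside these counts. FBtr0080350 had 14.47 ± 0.200 on day 1, 9.22 ± 0.693 on day 5 and 7.96 ± 0.128 on day 50 (SD, n = 3), so most of its loss lay before day 5. FBtr0087920 had 14.67 on day 1, 13.50 on day 5 and 12.30 on day 50. FBtr0086819 had 10.18 on day 1, 10.80 on day 5 and 8.78 on day 50. The rising FBtr0087279 had 9.85 on day 1, 8.77 on day 5 and 10.77 on day 50, so its lowest level was that of day 5.

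Control abdomens showed the same transcripts moving the same way. All 13 had the same sign there, against 47.7% of all transcripts, and all 13 reached an unadjusted p under 0.05 in that direction. Control abdomens had 51 called transcripts (0.307% of those tested), and 10 were shared, which is 76.9% of the selection calls and 19.6% of the control calls. The 3 not called in control abdomens were FBtr0076810 (-1.24, adjusted p = 0.0675), FBtr0078847 (-0.55, adjusted p = 0.272) and FBtr0087022 (0.23, adjusted p = 0.536). The median of the 11 falls was -1.37 in selection abdomens and -1.59 in control abdomens, against a median over all transcripts of -0.01 in selection and 0.01 in control abdomens. Both regimes share the estimate of spread in this fit, but no array. The 51 control calls became 9 in control abdomens alone, 143 without the day-15 arrays of control population 2, and 5, 31 and 3 without 1C, 2C and 3C, so the shares move with that count.

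The difference between the regimes was tested itself. No transcript passed (0% of 16637, with 931 at an unadjusted p under 0.05), and none of the 13 reached an unadjusted p under 0.05. FBtr0087279 changed by 2.00 in selection and 1.94 in control abdomens, a difference of 0.06 ± 0.48 (SE). FBtr0077061 changed by -2.09 and -1.75, a difference of -0.34 ± 0.48. FBtr0086819 changed by -2.02 and -2.22, a difference of 0.20 ± 0.39. These standard errors are large beside the differences, so the test does not show that the regimes aged alike. The transcripts with the smallest p were FBtr0086889 (1.35), FBtr0073412 (1.31) and FBtr0091716 (0.77) upward, and FBtr0076801 (-0.35), FBtr0086803 (-0.25) and FBtr0073750 (-0.39) downward. They had an adjusted p of 0.87.

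The 50 transcripts that passed in selection abdomens alone allow the same reading with no control array in their choice. All 24 rises and all 26 falls had the same sign in control abdomens, where 52.9% of all transcripts were higher and 47.1% lower on day 50. The rises had a median of 1.06 in selection and 0.711 in control abdomens, and the falls -1.23 and -1.36. In a fit of control abdomens alone, 16 of the 24 rises reached an unadjusted p under 0.05 upward, against 2.06% of all transcripts. Of the 26 falls 24 did so downward, against 2.75%. The largest not already named were FBtr0290272 (-1.71 in selection, -2.64 in control), FBtr0112420 (1.71 and 2.06) and FBtr0082339 (1.63 and 1.62), which were chosen after their values were seen. The rises moved by a median of 0.467 between days 5 and 15, 0.0641 between days 15 and 30 and 0.524 between days 30 and 50. The falls moved by -0.824, -0.186 and -0.196 over the same steps. The day-5 and day-50 arrays of these steps also chose the 50 transcripts.

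**Figure D3:**
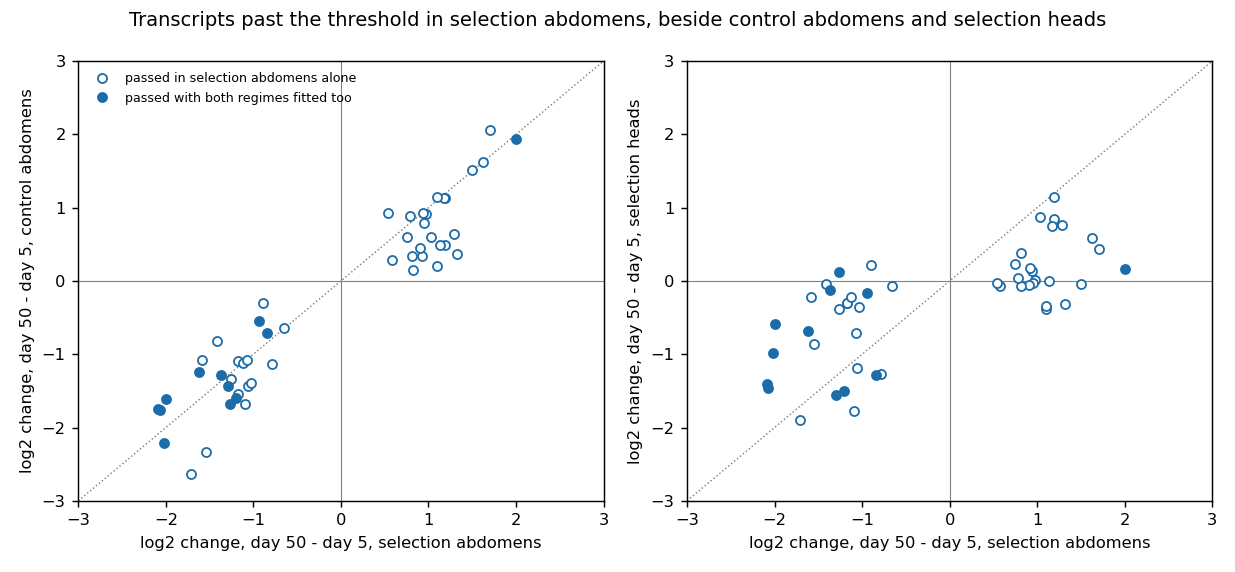
Each point is 1 of the 50 transcripts that passed in selection abdomens alone, with its log2 change from day 5 to day 50 in selection abdomens (x) against control abdomens (left, y) and selection heads (right, y); filled points also passed with both regimes fitted, and the dotted line marks equal change. On the left all 50 points lie in the quadrants of equal sign, and on the right 24 of the 26 falls and 15 of the 24 rises do. Of all transcripts, 52.9% were higher and 47.1% lower on day 50 in control abdomens, and 46.8% and 53.2% in selection heads.

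Heads of the same populations shared part of the falls, and few of the rises reached an unadjusted p under 0.05 there. In selection heads 119 transcripts passed (0.715% of those tested), of which 4 were among the 13, which is 30.8% of the abdominal calls and 3.36% of the head calls. They were FBtr0087920 (-1.51 in heads, -1.20 in abdomens), FBtr0075194 (-1.56 and -1.29), FBtr0080382 (-1.28 and -0.84) and FBtr0086819 (-0.98 and -2.02). Of the 13, 11 had the same sign in heads, against 49.7% of all transcripts. FBtr0087279 changed by 2.00 in abdomens and 0.17 in heads, where its adjusted p was 0.999. In heads it already stood at 10.40 on day 5, near its abdominal level of 10.77 on day 50. FBtr0080350, a fall in abdomens, was dim in heads, at 7.54 on day 5 and 7.66 on day 50. A fall of that transcript could hardly be seen there. Among the 50, 24 of 26 falls had the same sign in heads, where 53.2% of all transcripts were lower on day 50. Of the 26 falls 14 reached an unadjusted p under 0.05 downward, against 4.08% of all transcripts. Of the 24 rises 15 had the same sign, where 46.8% of all transcripts were higher on day 50. These 24 had a head median of 0.0858, and 3 reached an unadjusted p under 0.05 upward, against 3.31%. The difference between tissues was not tested here. The 119 head calls became 39 without 1S, 23 without 2S, 49 without 3S and 261 without the heads whose profile lay on the opposite side of their label, so these shares move with that count.

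None of the 16 transcripts with a gene symbol passed in selection abdomens. They covered 4 of the 8 genes of the chromatin list, and the other lists drawn up for this tissue held at most 2 each and are not described as groups. The 4 chromatin genes had a median log2 change of 0.0181, against -0.01 over all transcripts, and 0 of 4 passed in either direction, with 0 at an unadjusted p under 0.05. The gene kis, which encodes a chromatin remodelling helicase of the CHD family, changed by 0.27 ± 0.43 (SE). SuUR, a heterochromatin protein that slows replication in polytene chromosomes, changed by 0.11 ± 0.23. HDAC3, a histone deacetylase, changed by -0.07 ± 0.12. His4r, a replacement histone H4 gene expressed outside S phase, had 14.50, 14.62 and 14.92 as lowest, median and highest value on day 50 and 14.64, 14.82 and 15.01 on day 5. The days overlapped, and its change was -0.17 ± 0.09, with -0.33 in 1S, -0.11 in 2S and -0.07 in 3S (adjusted p = 0.547).

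The largest change among the named genes was that of Fatp1, a fatty acid transport protein. Its lowest, median and highest values were 11.95, 12.28 and 12.78 on day 50 and 11.62, 11.82 and 12.24 on day 5, so the days overlapped. The change was 0.41 ± 0.25 (adjusted p = 0.587), with 0.61 in 1S, -0.06 in 2S and 0.68 in 3S, and the steps were 0.05 between days 5 and 15, -0.14 between days 15 and 30 and 0.51 between days 30 and 50. For mio and Wdr24, subunits of the GATOR complex that activates TOR signalling, the changes were 0.28 ± 0.23 and -0.22 ± 0.20. Uba1, the ubiquitin-activating enzyme, changed by 0.30 ± 0.21, and rdx, a substrate adaptor of a cullin ubiquitin ligase, by -0.01 ± 0.09. LanA, the laminin alpha chain of basement membranes, changed by 0.05 ± 0.17 in selection abdomens and by -0.58 ± 0.17 in control abdomens. That difference of 0.64 ± 0.23 had an unadjusted p of 0.0144 and an adjusted p of 0.87 in limma. The membrane skeleton protein alpha-Spec changed by 0.20, the axon guidance gene fend by 0.24, the nucleolar gene sle by 0.19 and the phosphate transporter NaPi-III by -0.04. CG16974 changed by 0.08 and CG31178 by 0.03.

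The 16 genes differed between the populations in which way their values moved, and these counts depend on the scaling. As deposited, in 1S 11 of the 16 were higher on day 50 than on day 5, in 2S 4 and in 3S 6. With each array centred on its median, the counts were 8 in 1S, 10 in 2S and 5 in 3S. The centred values of 1S carry the shift given above, a median change of -0.311 against -0.0012 as deposited. Of all transcripts, 49.9% in 1S, 45.9% in 2S and 50.5% in 3S were higher on day 50 as deposited, and 27.5%, 56.9% and 36.8% after centring. For kis the changes were 0.99 in 1S, -0.17 in 2S and -0.01 in 3S, and for mio 0.93 in 1S, -0.02 in 2S and -0.06 in 3S. After centring the changes in 1S were 0.678 for kis and 0.615 for mio. On day 50 population averages of kis were 12.62 in 1S, 12.55 in 2S and 12.20 in 3S, and on day 5 they were 11.63, 12.71 and 12.20. Of the 16 genes, 2 were lowest in 1S on day 50 and 9 on day 5, against 30.2% and 37.6% of all transcripts. After centring these were 3 and 7 of the 16, against 45.1% and 19.4%. The SD between populations was smaller on day 50 in 10 of the 16, the same share as the 62.5% of all transcripts, and after centring in 15, against 72.2%. For LanA it was 0.081 on day 50 and 0.397 on day 5.

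**Figure D4:**
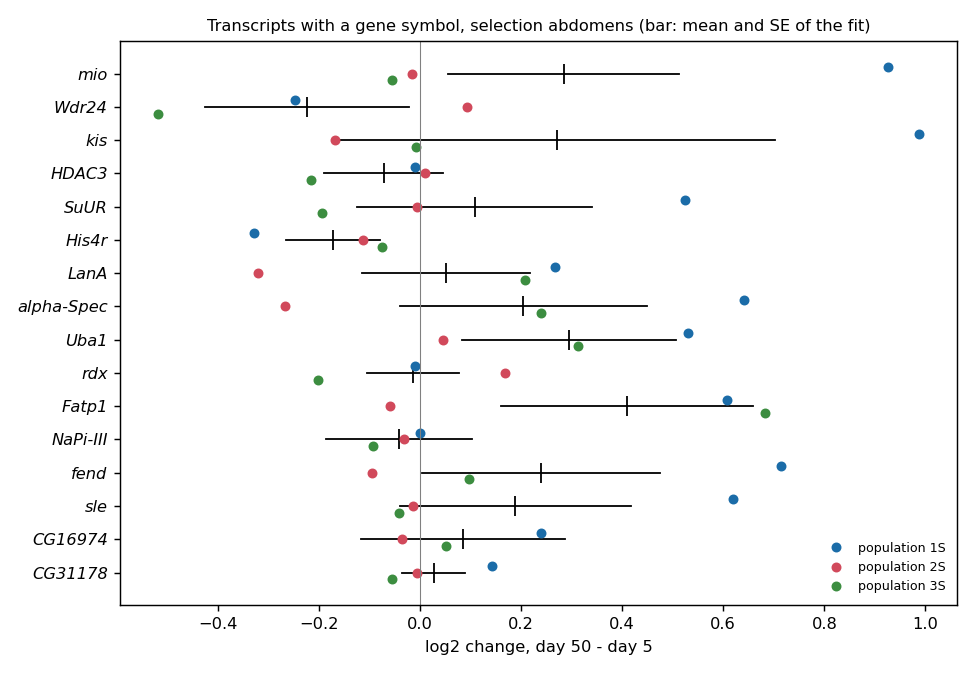
Log2 change from day 5 to day 50 for the 16 transcripts with a gene symbol in selection abdomens; coloured points are the 3 populations and black bars the fitted mean with its SE. Points of 1S lie furthest right for most genes: kis, mio, SuUR, fend, alpha-Spec, sle, Uba1, LanA, CG16974, CG31178 and NaPi-III. Fatp1 has the largest mean at 0.41.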

How the data were processed

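Per the labels, RNA was amplified and read on NimbleGen arrays with 1 dye, Cy3. Each deposited value is a log2 intensity of 1 transcript from RMA (background correction, quantile normalization and probe summary), per the submitters' processing notes. For the RMA version, the set of arrays normalized jointly, the build and the annotation, the status is: not given in the sources used here. Precision is limited by the number of arrays.

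Replicates were averaged within each population and day. The 24 abdominal averages of days 5 to 50 were fitted in limma 3.58.1 (R 4.3.3) with population as a block and regime by day, which leaves 12 residual degrees of freedom, with an intensity trend and two-sided tests, adjusted by Benjamini-Hochberg over 16637 transcripts. The block is the population itself, sampled at each age. Heads were fitted in the same way. The fit was tested on simulated averages with independent noise, in which 50 transcripts of each size were changed on day 50 in selection abdomens. It recovered 28% of changes of 0.5 log2, 68% of 1, 92% of 1.5 and 98% of 2. All sizes were planted together, which eases the Benjamini-Hochberg cutoff, so these shares need not hold for the real comparison. There 83 transcripts rose and 37 fell at least 2-fold, and 10 of these passed. Noise in the real arrays need not be independent.

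In each contrast the rule named up to 12 transcripts with a gene symbol and 2 without in each direction, by size of change among those that passed and moved alike in all 3 populations. If none passed in a direction, the 3 of lowest p there were given. All 16 transcripts with a symbol were given for ageing. Of the rest, 28 matched several genes and 16593 none, and they are unnamed. The comparison, its lists and its naming rule were chosen with earlier results of these data known. The alternatives were rescaling, replicate sets, single arrays, filters and left-out arrays or populations. No sequence or coordinate is given.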

Additional observations from a re-analysis of the deposited data

Results flagged for a closer look

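Among 116 groups of 6 arrays, formed by 29 transcripts on 4 days, 5 held an array far from the others by Dixon's test. Chance flags about 1 in 20 groups, so this number is close to or below what chance gives. The gene kis was lowest on day 30 in replicate 1 of 2S, at 11.37, with the nearest array at 12.19. His4r was highest on day 50 in replicate 2 of 3S, at 14.92, with the nearest at 14.64. CG31178 was highest on day 50 in replicate 1 of 1S, at 8.09, with the nearest at 7.81. FBtr0078847, one of the falls, was highest on day 5 in replicate 2 of 1S, at 10.83, with the nearest at 9.11, and its change was -0.94 over both replicates and -0.64 in replicate 1 alone, where it no longer passed. FBtr0086819, another fall, was highest on day 15 in replicate 1 of 2S, at 11.21, with the nearest at 10.24, and that day does not enter its change from day 5 to day 50.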

How the results depend on the processing

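The 13 transcripts that changed between day 5 and day 50 became 7 without population as a block (populations unpaired). The count was 73 when single arrays were fitted with a block of population and day (39 higher, 34 lower). That fit treats the arrays of a population and day as nearly independent (estimated correlation 0.13), so single arrays weigh in its count. The count was 0 in biological replicate 2 alone, 7 after quantile normalization and 2 among transcripts above the median level. It was 50 in selection abdomens alone and 87 in selection abdomens of days 5 and 50 alone (61 higher, 26 lower). Leaving out arrays gave 7 without day 30, 53 without the day-15 arrays of control population 2, and between 0 and 5 without each selection population. The steps of the time course gave 1 in single arrays (days 5 to 15) and between 0 and 1 without each population (days 15 to 30), and 0 under the other settings run. The 51 control calls became 24 without population as a block, 20 and 6 in replicates 1 and 2 alone, and 127 in single arrays. They became 11 above the median level, 143 without the day-15 arrays of control population 2 and 9 in control abdomens alone. Without each control population between 3 and 31 passed. The 119 head calls became 261 without the heads of opposite profile and between 23 and 49 without each population. The regime difference stayed at 0 under each setting run, pairing of populations included. Among the 21 called values of named transcripts none reversed its direction, and 119 of their 288 values under an alternative lost the call. The choice of arrays left out, of day 30 and of control abdomens alone was made after seeing the data. Choosing transcripts in replicate 2 for the timing could not be run, because none passed there. With 3 populations a regime, small changes are harder to pass than large ones, and with no gene names for most transcripts, most gene groups could not be described.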
